A study of Rattus norvegicus with 4 samples.

Results

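Transcript levels are described here for Map3k8, a kinase that starts the ERK cascade, and for the phosphatases and Sprouty proteins that restrain MAP kinase signalling, in rat aortic smooth muscle cells with and without interleukin-1 beta (IL-1b). The 9 genes were chosen by name (Dusp1, Dusp4, Dusp5, Dusp6, Dusp10, Dusp16, Map3k8, Spry2 and Spry4), and their probe sets are those whose platform annotation gives exactly that symbol. This gave 11 of the 31099 probe sets of the array, for 8 of the 9 genes, where 14217 genes of the array had a probe set with a single symbol. Dusp16 had no such probe set and was not analysed here. Of the 11 probe sets, 10 were bright enough to be tested, for 7 genes, and the probe set of Dusp4 was not.

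Smooth muscle cells, the contractile cells of the artery wall, had been cultured from the aorta of Sprague-Dawley rats. They were kept for 5 days with 10% serum and for 3 days without serum, and then for 24 hours with IL-1b at 2.5 ng/mL (2 samples) or with the vehicle, 0.1% bovine serum albumin (2 samples). Each sample was hybridised to 1 single-colour array, and values are MAS5 intensities on a linear scale. The labels do not say whether samples of a group came from separate cultures. The p-values rest on the spread between these samples, pooled in part over probe sets of similar brightness, and that spread may be technical.

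MAP kinases (ERK, p38 and JNK) are switched on by a relay of kinases and switched off by dual-specificity phosphatases, the Dusp proteins, which remove both activating phosphates. Many Dusp and Sprouty genes are themselves transcribed in response to MAP kinase activity, so that their transcripts form a negative feedback on the pathway. In vascular smooth muscle, IL-1 receptors and growth factor receptors both feed into these kinases, which are known for their part in inflammatory gene expression and in cell growth.

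RefSeq promoter windows (build GRCr8, 250 bases before to 50 after the start site) were found for 8 of the 9 genes, and Dusp4 had none. The 3 windows printed belong to the genes whose change passed the test, 1 that fell and 2 that rose. They are written 5′ to 3′ on the strand of the gene, in lower case, with capitals for matches to the motifs named after them. The windows are chr17:58077925-58078224 (plus strand) for Map3k8, chr10:17184603-17184902 (plus strand) for Dusp1 and chr7:35979354-35979653 (plus strand) for Dusp6.
Map3k8: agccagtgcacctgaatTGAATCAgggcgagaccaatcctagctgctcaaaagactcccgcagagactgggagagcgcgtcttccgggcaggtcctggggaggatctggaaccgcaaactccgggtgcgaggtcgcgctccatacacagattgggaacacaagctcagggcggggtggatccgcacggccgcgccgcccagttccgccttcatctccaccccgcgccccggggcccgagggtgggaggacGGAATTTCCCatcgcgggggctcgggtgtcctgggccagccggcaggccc
Dusp1: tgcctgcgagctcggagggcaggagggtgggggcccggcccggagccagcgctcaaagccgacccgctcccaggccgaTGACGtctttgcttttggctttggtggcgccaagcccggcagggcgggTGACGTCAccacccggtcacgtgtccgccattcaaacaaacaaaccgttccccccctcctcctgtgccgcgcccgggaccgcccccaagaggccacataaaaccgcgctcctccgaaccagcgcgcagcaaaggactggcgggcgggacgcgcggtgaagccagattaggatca
Dusp6: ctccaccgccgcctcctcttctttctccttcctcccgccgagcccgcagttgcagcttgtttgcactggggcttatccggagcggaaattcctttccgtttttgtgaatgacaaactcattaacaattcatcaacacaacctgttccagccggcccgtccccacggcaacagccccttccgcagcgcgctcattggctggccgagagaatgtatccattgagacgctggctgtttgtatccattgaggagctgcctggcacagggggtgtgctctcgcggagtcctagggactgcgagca
The motifs were searched on both strands. They were the cyclic AMP response element TGACGTCA and its shorter form TGACG, which it contains, the AP-1 site TGANTCA, the ETS site CCGGAAGT, TATAAA, the kB motif of NF-kB and the CArG motif of serum response factor. The CCAAT box was searched too and is not in capitals. In Map3k8 the capitals mark a match to the kB motif on the minus strand, whose first base is position 1 after the start site, and a match to TGANTCA at position -233. Of 33469 promoter windows of this length, 4.18% held the kB motif and 7.33% held TGANTCA. In Dusp1 the capitals mark TGACGTCA at position -124 and TGACG at position -172. The longer form was found in 1.83% of all windows and the shorter in 21.2%. The Dusp6 window held only the CCAAT box, at position -59 on the minus strand, which 37.5% of all windows held. CCGGAAGT (3.81% of all windows) and TATAAA (14.2%) were in none of the windows of these genes. Dusp5 held the CArG motif in 2 neighbouring copies, CCATATTTGG at position -82 and CCTTATATGG at position -72, and this motif was found in 1.64% of all windows. The 9 windows of the 8 genes (Spry2 has 2 start sites) had a GC content of 56.0% to 76.3%, against a median of 51.7% over all windows.

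Among the genes tested, Map3k8 and Dusp6 rose with IL-1b and Dusp1 fell, while Dusp5, Dusp10, Spry2 and Spry4 did not pass the test. The test was limma's moderated test over all 18625 probe sets bright enough, on log2 intensity with an offset of 5.49 added. An adjusted p under 0.05 (Benjamini-Hochberg over all probe sets) was the threshold, and the brightest probe set stood for its gene. By this rule 2 of 7 genes were higher and 1 of 7 lower, where 7.19% of all 10000 genes tested were higher and 8.13% lower, 15.3% in either direction. By probe set, 3 were higher and 2 lower of 10 tested, where 13.4% of all probe sets were called. The median log2 fold change was 1.13 over these 7 genes and -0.0071 over all 10000. The IL-1b and vehicle arrays did not overlap in any of the 7 genes, as for 61.3% of all genes.

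**Figure D1:**
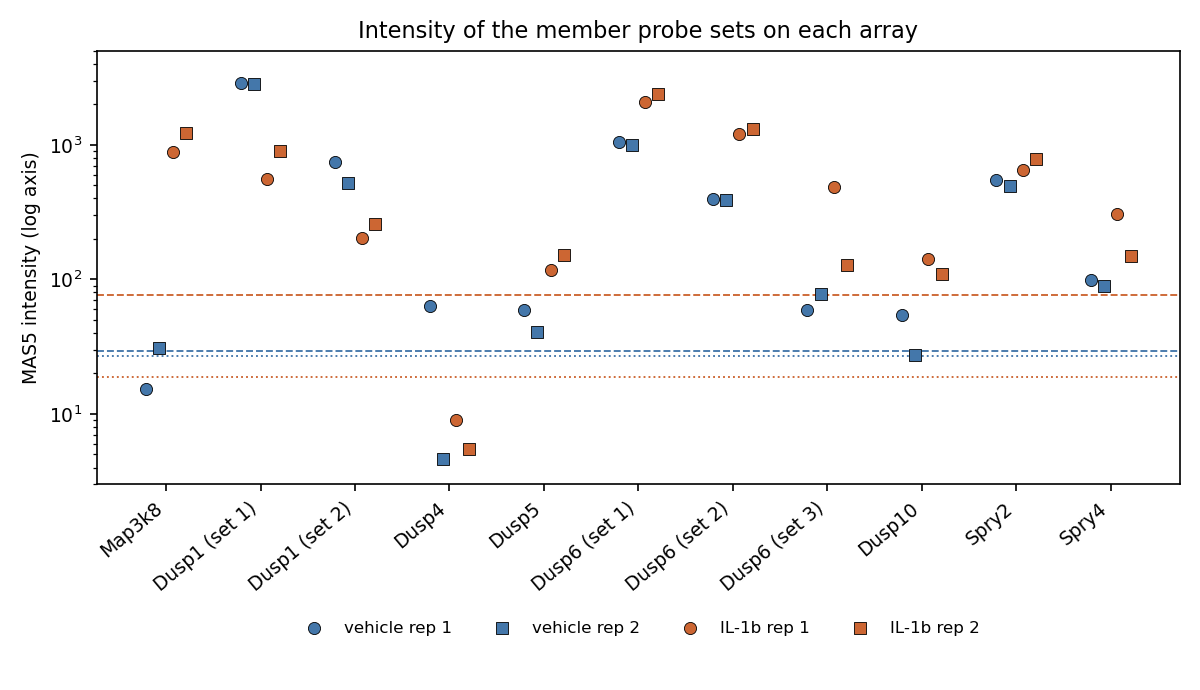
MAS5 intensity (log axis) of the 11 probe sets on each array, vehicle in blue and IL-1b in orange, with replicate 1 as circles and replicate 2 as squares. Lines give each array's background, dashed for replicate 1 and dotted for replicate 2; Map3k8 lay at 15.4 and 30.7 with vehicle and at 881 and 1216 with IL-1b, and Dusp4 was the only gene with overlapping groups.

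Map3k8 (also called Tpl2) is a MAP kinase kinase kinase that phosphorylates the ERK activators Map2k1 and Map2k2, and it is held inactive by the NF-kB precursor protein that Nfkb1 encodes. Its intensity was 15.4 and 30.7 on vehicle replicates 1 and 2, and 881 and 1216 on the IL-1b replicates. Both IL-1b arrays were far above both vehicle arrays, and 1 of the 2 vehicle arrays was above background, taken on each array from bacterial control probe sets. The group means were 23.1 ± 10.9 and 1049 ± 237 (SD, n = 2). The log2 fold change was 5.24 ± 0.35 (SE, 95% interval 4.42 to 6.06, adjusted p = 1.9e-04), a 37.9-fold rise on the offset scale, measured from a vehicle level that lay about at background. It was the 40th largest increase of the 18625 probe sets tested. On both vehicle arrays it lay below the level of the brightness filter, so it entered the test through its IL-1b arrays. Against the geometric mean of the vehicle arrays, IL-1b replicate 1 was 40.5 times and IL-1b replicate 2 was 55.9 times as bright. Leaving out vehicle replicate 1 gave 4.84, and leaving out vehicle replicate 2 gave 5.64.

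Dusp1 (MKP-1), a phosphatase of the nucleus that acts on p38 and JNK as well as ERK, went the other way. At its brighter probe set it read 2894 and 2845 with vehicle and 561 and 907 with IL-1b. Both IL-1b arrays were below both vehicle arrays, and all 4 arrays were above background. The means were 2869.8 ± 34.7 and 734 ± 245 (SD, n = 2), and the log2 fold change was -2.00 ± 0.23 (SE, 95% interval -2.54 to -1.46, adjusted p = 0.0018). The second probe set of Dusp1 read 746 and 519 with vehicle and 202 and 256 with IL-1b. Its log2 fold change was -1.43 ± 0.23 (adjusted p = 0.0084), so both probe sets passed and fell, although the second missed the threshold without the intensity trend of the variance (adjusted p = 0.072). The first ranked 386th and the second 808th among the largest decreases of the 18625 probe sets. The IL-1b arrays were less alike than the vehicle arrays at the brighter probe set. There the difference was -1.66 with IL-1b replicate 2 alone and -2.34 with IL-1b replicate 1 alone.

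Dusp4 and Dusp5 are also phosphatases of the nucleus, and Dusp5 acts on ERK alone. Dusp4 read 63.9 and 4.61 with vehicle and 9.01 and 5.45 with IL-1b. Only vehicle replicate 1 was above background, the groups overlapped, and the probe set was too dim to be tested, so no direction is given for it. Dusp5 read 59.2 and 40.3 with vehicle, and 117 and 153 with IL-1b. The groups did not overlap, and each of the 4 arrays was above background. Dusp5 had a log2 fold change of 1.35 ± 0.41 (SE, 95% interval 0.39 to 2.32), and it missed the threshold (adjusted p = 0.078).

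Dusp6 (MKP-3) is the ERK phosphatase of the cytoplasm and was measured by 3 probe sets. The brightest read 1049.8 and 992 with vehicle and 2097 and 2385 with IL-1b. This was a log2 fold change of 1.13 ± 0.14 (SE, 95% interval 0.79 to 1.47, adjusted p = 0.0031), or 2.18-fold. The second probe set read 395 and 388 with vehicle and 1203 and 1316 with IL-1b, for a log2 fold change of 1.67 ± 0.15 (95% interval 1.33 to 2.02, adjusted p = 5.6e-04). In both of these the replicates of each group lay close together and far from the other group. The third and dimmest read 59.1 and 77.4 with vehicle, and 485 and 128 with IL-1b, and its log2 fold change of 1.81 ± 0.58 missed the threshold (adjusted p = 0.094). That value was 0.87 with IL-1b replicate 1 left out and 2.74 with IL-1b replicate 2 left out, so it rested largely on the first. The call of the brightest probe set was lost with median centring (1.13 became 0.92, adjusted p = 0.13) and without the intensity trend (adjusted p = 0.057). The second probe set passed under both (adjusted p = 0.023 and 0.027).

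Dusp10 (MKP-5) is a phosphatase of p38 and JNK. It read 54.2 and 27.6 with vehicle and 141 and 110.3 with IL-1b. The groups did not overlap, and the lower vehicle array was just above its background of 26.9. Its log2 fold change was 1.55 ± 0.48 (SE, 95% interval 0.42 to 2.69) and missed the threshold (adjusted p = 0.083).

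Spry2 and Spry4 encode Sprouty proteins, which are made after growth factor stimulation and dampen signalling from receptor tyrosine kinases to ERK. Spry2 read 552 and 494 with vehicle, and 648 and 790.0 with IL-1b. Both IL-1b arrays were above both vehicle arrays, and the gap between the groups was smaller than the distance between the IL-1b arrays. This gave a log2 fold change of 0.45 ± 0.17 (SE, 95% interval 0.05 to 0.85, adjusted p = 0.14). Spry4 read 98.2 and 89.9 with vehicle, and 304 and 148 with IL-1b. The IL-1b arrays stood further from each other than the lower of them stood from the vehicle arrays. For Spry4 the log2 fold change was 1.13 ± 0.38 (95% interval 0.24 to 2.03, adjusted p = 0.10). Leaving out IL-1b replicate 1 gave 0.63, and leaving out IL-1b replicate 2 gave 1.64.

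**Figure D2:**
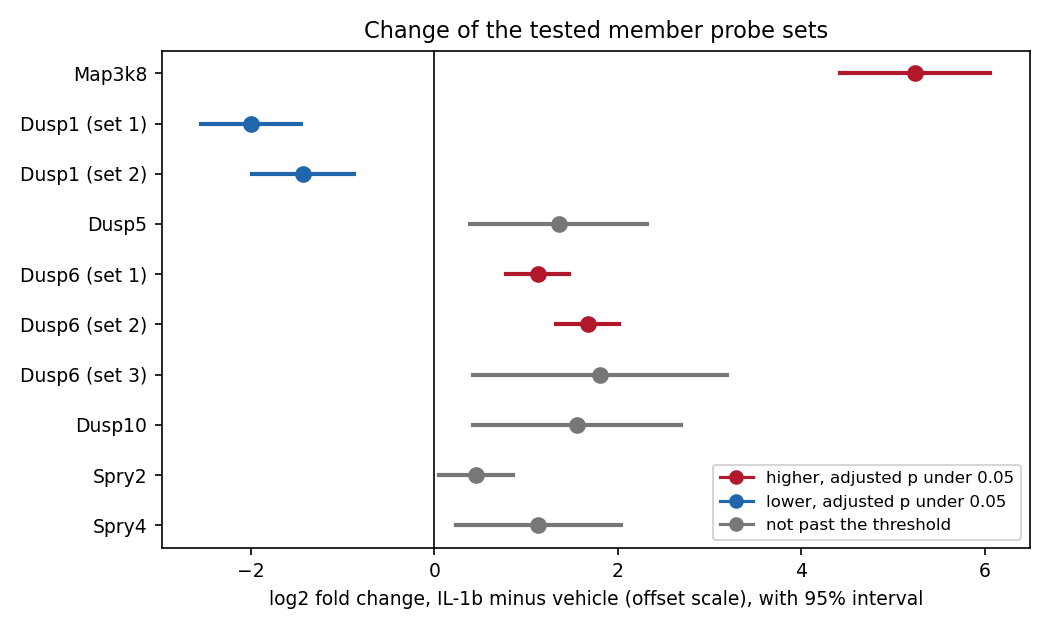
Log2 fold change (IL-1b minus vehicle, offset scale) of the 10 probe sets tested, with its 95% interval from limma; sets of 1 gene are numbered from the brightest. Map3k8 at 5.24 and the first 2 sets of Dusp6 passed as higher (red), both sets of Dusp1 passed as lower (blue), and the other 5 (grey) missed an adjusted p of 0.05.

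The 4 genes that missed the threshold did so in a test with 2 arrays a group, and their intervals leave room for changes from near 0 to several-fold. Some of them passed when an array was left out. Without IL-1b replicate 1, Dusp5, Dusp10 and Spry2 passed, and 29.9% of all probe sets did. Without IL-1b replicate 2, Dusp10 and Spry4 passed, and 47.2% of all probe sets did. In both of these fits the lone IL-1b array was assumed to vary like the vehicle arrays. Without either vehicle array none of the 4 passed. The direction of each tested gene was the same under the alternatives run, except that Spry2 turned to -0.41 when arrays were scaled to their hybridisation controls, a scaling that moved the median of all probe sets to -0.825. Under that scaling Map3k8 alone of the 7 genes passed (4.47, adjusted p = 0.020), while Dusp1 (-2.86, adjusted p = 0.64) and Dusp6 (0.26, adjusted p = 0.93) did not. Relative to the shifted median they were at 5.30, -2.04 and 1.09. The scaling divides all values of an array by the same factor, so these return near the values as reported by construction. They lend the calls no support.

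**Figure D3:**
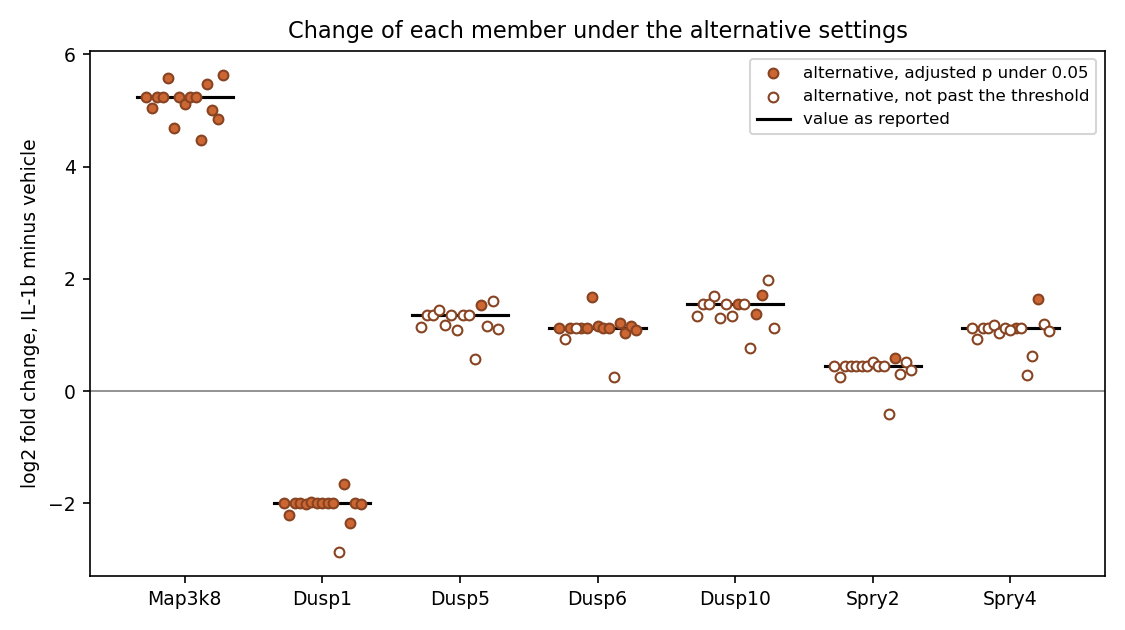
Log2 fold change of the 7 genes tested as reported (black bar) and under each alternative setting (points, filled where the adjusted p was under 0.05). Map3k8 stayed between 4.47 and 5.64 and Dusp1 between -2.86 and -1.66, and Spry2 crossed 0 in 1 alternative, the scaling to hybridisation controls, at -0.41.

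One array, IL-1b replicate 1, differed in its technical readings. The bacterial transcripts added as hybridisation controls were 3.50 times as bright there as the vehicle mean, and 0.954 times on IL-1b replicate 2. Its background was 76.7, against 18.8 to 29.4 on the others. Its median intensity was 89.6, against 61.3 to 66.4, and 54.25% of its probe sets were above background, against 65.16% to 72.29%. In log2 values, IL-1b replicate 2 correlated with the vehicle arrays at 0.909 and 0.920, above its 0.902 with IL-1b replicate 1. IL-1b replicate 1 correlated with the vehicle arrays at 0.854 and 0.859. The third probe set of Dusp6 and those of Dusp10 and Spry4 were higher on IL-1b replicate 1 than on IL-1b replicate 2, and those of Map3k8, Dusp1, Dusp5 and Spry2 and the 2 brighter sets of Dusp6 were lower. The part of the controls in these differences was not tested. All 8 smooth muscle markers listed were above background on the 4 arrays, and their summed intensity was 47136 and 47592 with vehicle and 15855 and 14369.5 with IL-1b. Of 6 endothelial markers measured, 0 were above background on all arrays, and 4 (Pecam1, Tie1, Emcn and Vwf) on none. Leukocyte markers summed to 668 to 751 with vehicle and 1053 to 1069 with IL-1b, with Cd14 the 1 of 7 above background on all arrays and Itgam and Cd79b on none. Cd14 made up most of these sums (616 and 578 with vehicle, 796 and 950 with IL-1b), while Csf1r was lower on both IL-1b arrays. Fibroblast markers summed to 621 to 661 with vehicle and 1281 to 1793 with IL-1b, with 3 of 5 above background on all arrays. Lum made up most of these sums (449 and 488 with vehicle, 658 and 1234 with IL-1b) and did not pass. Pi16 did not pass either, Dcn was too dim to be tested, and Pdgfra and Dpt passed as higher. In bulk samples, fewer cells of a type and less RNA per cell cannot be told apart, and the part of these markers in the changes of the Dusp, Sprouty and Map3k8 transcripts was not tested.

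The partners of Map3k8 were followed with a list of 10 genes of its complex and its activation, of which 9 were measured, 2 higher, 0 lower and 7 not past the threshold. Over all genes tested 7.19% were higher and 8.13% lower, and the lists that follow stand against the same shares. Without IL-1b replicate 1 this list had 4 higher and 0 lower, and without IL-1b replicate 2 it had 3 higher and 4 lower, in fits that called far more of all probe sets (29.9% and 47.2%). Nfkb1, whose precursor protein binds Map3k8, rose from 625 ± 95.3 to 1521 ± 333 (SD, n = 2, log2 fold change 1.27 ± 0.20 SE, adjusted p = 0.0073). Ikbkb, the kinase that releases Map3k8 from this precursor, rose from 263 ± 14.6 to 654 ± 69.8 (log2 fold change 1.29 ± 0.17, adjusted p = 0.0037). Both lost the call with median centring, and Nfkb1 also without the intensity trend. Tnip2, the other protein of the complex, did not pass (log2 fold change -0.29, 95% interval -0.75 to 0.17). The substrates Map2k1 and Map2k2 did not pass either, at 0.31 (interval -0.04 to 0.66) and 0.14 (interval -0.20 to 0.48).

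In the Ras-Raf-MEK-ERK cascade, 0 of 16 measured genes were higher, 1 was lower and 15 did not pass, and 1 of 16 lower is near the 8.13% of all genes. Leaving out IL-1b replicate 1 gave 4 higher and 2 lower, and leaving out IL-1b replicate 2 gave 5 and 2. Iqgap1, a scaffold of the cascade, did not pass at its brightest probe set (1.06 ± 0.29, adjusted p = 0.055), while its other probe set was called higher. The gene that fell was Ksr1, a scaffold that holds Raf, MEK and ERK together, from 203 ± 23.1 to 27.1 ± 6.18 (log2 fold change -2.69 ± 0.41, adjusted p = 0.0062), with 1 IL-1b array above background. Its other probe set did not pass (-0.51, adjusted p = 0.57), and it missed the threshold without either vehicle array. Among 14 measured receptors and adaptors near the step where Sprouty acts, 2 were higher, 1 lower and 11 did not pass, where 15.3% of all genes were called in either direction. With either vehicle array left out 0 were higher and 1 lower, and with IL-1b replicate 1 or 2 left out 4 and 5 were higher and 2 and 4 lower. Gab1, a docking protein below growth factor receptors, fell from 601 ± 29.6 to a mean of 177 (-1.78 ± 0.26, adjusted p = 0.0050), a call lost without the intensity trend. Pdgfra, a platelet-derived growth factor receptor, rose by 1.80 ± 0.41 (adjusted p = 0.031). The adaptor Grb2 rose by 0.69 ± 0.17 (adjusted p = 0.041), but its other 2 probe sets did not pass, and scaling to hybridisation controls turned it to -0.18. Pdgfra and Grb2 missed the threshold with either vehicle array left out, Grb2 also with median centring and without the intensity trend, and Pdgfra also without the filter on dim probe sets.

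In a list for p38 and JNK, the kinases on which Dusp1 and Dusp10 act, 4 of 23 measured genes were higher. A further 2 were lower and 17 not past the threshold, where 15.3% of all genes were called. The list also held Map2k5 and Mapk7, kinases of the ERK5 pathway, and neither passed. The counts were 6 higher and 7 lower without IL-1b replicate 2, 2 and 1 with median centring, and 2 and 0 without the intensity trend. Map3k6, an upstream kinase of p38 and JNK, rose by 2.48 ± 0.33 (SE, adjusted p = 0.0036). Gadd45a, a stress protein that activates upstream kinases of p38, rose from 486 ± 70.0 to 2181 ± 252, by 2.16 ± 0.17 (adjusted p = 3.6e-04), and its relative Gadd45g fell from 605 ± 4.84 to 145 ± 63.6, with a log2 fold change of -2.09 ± 0.30 (adjusted p = 0.0050). Mapkapk2, a kinase below p38 that stabilises cytokine transcripts, rose from 847 ± 48.4 to 1964 ± 267 (1.20 ± 0.16, adjusted p = 0.0032). Mapkapk2 lost the call with median centring and without the intensity trend, and Gadd45g without the trend. The remaining calls, named after their values were seen, were the p38 activator Map2k3, which rose by 0.90 ± 0.14 (adjusted p = 0.0066), and Mapk14, which encodes p38 alpha, at -0.69 ± 0.14 (adjusted p = 0.022). Both lost the call with median centring, without the intensity trend and with either vehicle array left out.

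Of the other phosphatases of MAP kinases and the relatives of Sprouty, 14 genes were measured, of which 2 were higher, 2 lower and 10 not past the threshold, against the 7.19% and 8.13% of all genes. Leaving out IL-1b replicate 2 gave 5 higher and 4 lower, and leaving out IL-1b replicate 1 gave 3 and 4. Spry1, a further Sprouty gene, read 899.7 and 888 with vehicle and 159 and 109 with IL-1b. All 4 arrays were above background and the groups lay far apart. Its log2 fold change was -2.71 ± 0.22 (SE, adjusted p = 4.0e-04), or 6.55-fold lower, where Spry2 and Spry4 had 0.45 and 1.13 without passing. The difference between these genes was not tested. Dusp14, another dual-specificity phosphatase, read 481 and 490.2 with vehicle and 88.4 and 144 with IL-1b (-2.05 ± 0.27, adjusted p = 0.0034). Spred3, of the Sprouty-related Spred family, rose by 1.58 ± 0.22 (adjusted p = 0.0044) at its brighter probe set and missed the threshold at the other (1.24, adjusted p = 0.094). Ppm1a, a phosphatase that acts on p38 and JNK pathways, rose by 0.88 ± 0.16 (adjusted p = 0.013). Ppm1a missed the threshold with either vehicle array left out, with median centring and without the intensity trend. Spred1 and Spred2 had no probe set with a single symbol and were not analysed here.

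Transcripts known to follow ERK activity, the signal that Map3k8 feeds and Dusp6 removes, had 12 of 24 measured genes higher, 1 lower and 11 not past the threshold, where 7.19% of all genes were higher. Their median log2 fold change was 1.13, against -0.0071 over all genes. ERK activity itself was not measured, and a link of these transcripts to Map3k8 or Dusp6 was not tested. Egr2 encodes a zinc finger factor. Its brighter probe set was above background on neither vehicle array and was at least 14.2-fold higher with IL-1b, at 416 ± 162 (adjusted p = 0.0014). The other probe set of Egr2, above background on vehicle replicate 1 at 48.5, did not pass (1.81, adjusted p = 0.26). Etv4, an ETS factor, rose from 47.2 ± 21.7 to 457 ± 189.6 (3.13 ± 0.42, adjusted p = 0.0036), with both of its probe sets past the threshold. Etv5, a related factor, had 1 vehicle array above background and rose by 3.14 ± 0.66 (adjusted p = 0.023), but its other probe set did not pass (0.39, adjusted p = 0.67). With either IL-1b array left out, that other probe set was the brighter, stood for the gene and did not pass (-0.12 without IL-1b replicate 1). The call was also lost without the intensity trend. Phlda1 rose from 195 ± 22.2 to 1445 ± 75.6 (2.86 ± 0.16, adjusted p = 1.2e-04). The immediate early gene Egr1 rose by 1.60 ± 0.26 (adjusted p = 0.0085, lost without the intensity trend), and Fos did not pass (-0.67, 95% interval -1.68 to 0.34). Ccnd1 (picked out after its value was seen) did not pass at its brightest probe set (0.86, adjusted p = 0.076). Its other 2 probe sets were called higher. The list also held Elk1 and Elk3, whose proteins are targets of ERK, and neither passed. Lower was Srf (picked out after its value was seen), which encodes serum response factor (-0.86 ± 0.16, adjusted p = 0.013). Its call was lost with median centring, without the intensity trend and with either vehicle array left out, and its other probe set did not pass (-0.19, adjusted p = 0.88). The 12 higher were 10 with median centring, 8 without the intensity trend and 0 when arrays were scaled to hybridisation controls, a scaling that left 0.655% of all probe sets called and none of the genes in the 6 lists.

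**Figure D4:**
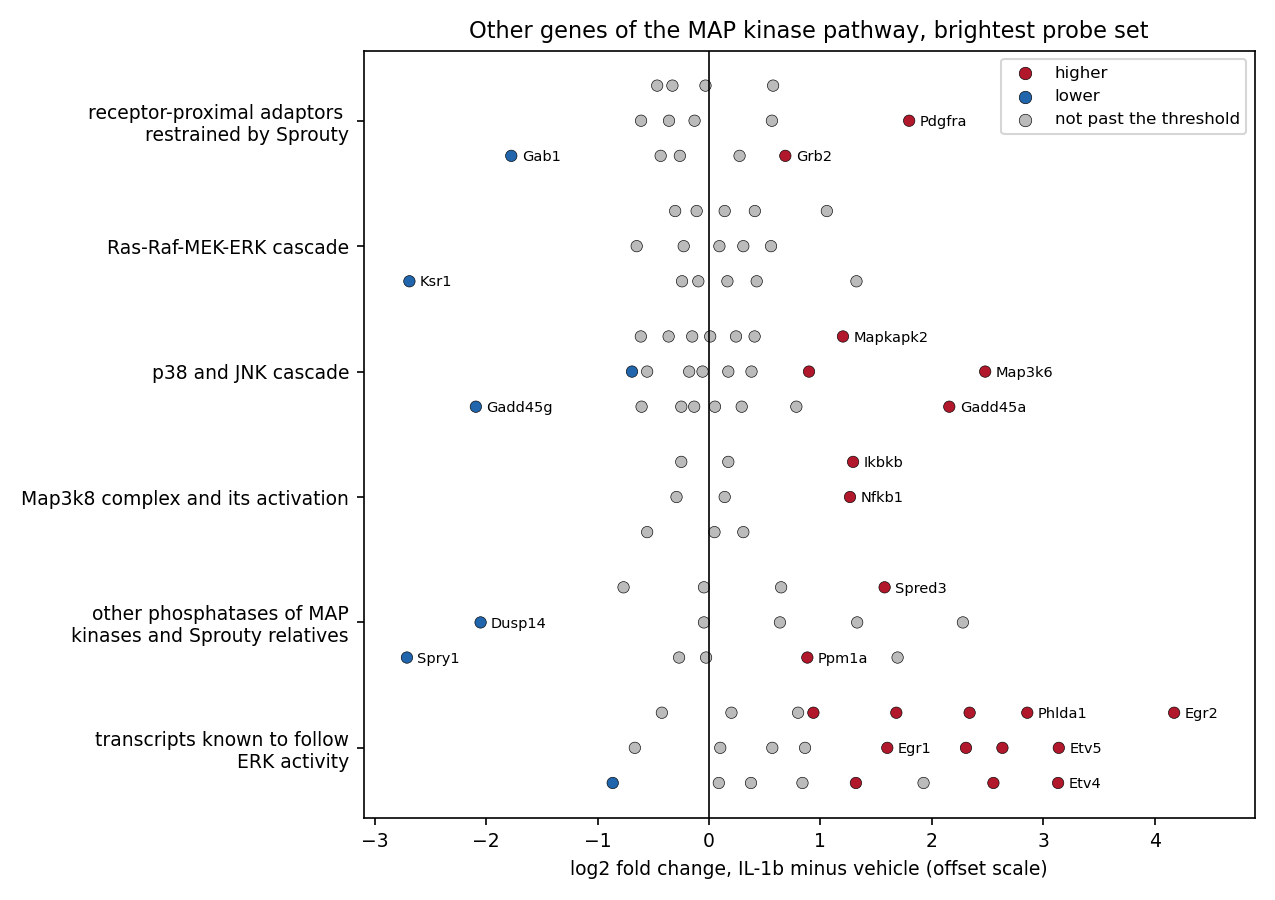
Log2 fold change (IL-1b minus vehicle, offset scale) of the other genes of the MAP kinase pathway by list, 1 point a gene at its brightest probe set, red for higher, blue for lower and grey for not past an adjusted p of 0.05. In the ERK-responsive list 12 of 24 were higher, while in the Ras-Raf-MEK-ERK cascade 0 of 16 were, with Ksr1 lower at -2.69; with arrays scaled to hybridisation controls none of these calls remained.

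The genes whose log2 values over the 4 arrays, relative to their vehicle mean, lay nearest to each called gene were found by Euclidean distance among 9931 other genes. Nearest to Dusp1 were Dusp14, at a distance of 0.081, and Sorbs2, an adaptor of the actin cytoskeleton, at 0.12, with log2 fold changes of -2.05 and -2.03. Nearest to Dusp6 were Zfand2a at 0.055 and Rnf149 at 0.083, with log2 fold changes of 1.14 and 1.11. Nearest to Map3k8 were Slc7a11, the cystine transporter subunit, at 0.53 with a log2 fold change of 5.49, and Rhou, a small GTPase, at 0.62. Slc7a11 was above background on 1 vehicle array. Rhou was above it on neither and was at least 35.9-fold higher with IL-1b, so its distance rests in part on vehicle values below background. With 4 arrays in 2 groups, the distance rests mainly on the size of the change.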

How the data were processed

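Each of the 4 samples was run on 1 single-colour Affymetrix array. The submitters' processing notes name MAS5, and the deposited table holds its intensity values, unlogged, with version and settings not given in the sources used here. In the values, each array's mean without the lowest and highest 2% was 250.1, so arrays were not scaled further. Before log2, 5.49 (the 10th percentile of the table) was added to each value, so changes of dim genes come out too small. Without the 57 control probe sets, the 18625 probe sets at or above the 40th percentile of mean log2 value (5.37) entered limma 3.58.1 under R 4.3.3 (lmFit, eBayes with an intensity trend, 2 residual and 4.91 prior degrees of freedom). This mean was over both groups, so genes dim with vehicle, such as Map3k8, Egr2, Slc7a11 and Rhou, entered through their IL-1b arrays. Every adjusted p is from limma, with Benjamini-Hochberg adjustment over all probe sets tested. Simulated data with known changes were used to test the fit. Unlike these data, they had the same spread for every probe set and array, so they check the calculation only and not the calls.

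Of the probe sets, 20826 had 1 symbol in the platform annotation, 436 several and 9780 none listed. Background was the 95th percentile of 27 bacterial control probe sets, chosen after the data were seen. For a gene below it on both vehicle arrays, the fold was the geometric mean with IL-1b over that background, as a lower bound. The genes described, the lists and the tests were chosen with earlier results of these data known. Genes named beside them were up to 4 past the threshold with the largest change in each list, 11 chosen for their role, and the 2 nearest in pattern to each called gene. The values carry no counts, so precision is limited by having few arrays. The alternatives changed the offset, the normalization (quantile, median centring), the filter, the variance model (without the trend, robust), added the replicate number as a term, left out 1 array, took the probe set with the smallest p or, added after the data were seen, scaled arrays to their hybridisation controls.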

Additional observations from a re-analysis of the deposited data

How the results depend on the processing

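With 2 arrays a group, 1 array can decide a call. Leaving out 1 array in turn gave 1426 to 8794 probe sets called (2503 with all arrays), 2 to 5 of the tested Dusp, Sprouty and Map3k8 genes higher, 1 lower each time, and 21 to 58 genes called in the pathway lists (29 with all arrays). Median centring gave 1637 probe sets, of which 34.4% were higher against 47.1% as reported, with 1 gene higher (Map3k8) and 19 in the lists. It moved the median log2 fold change of all probe sets to -0.19. Without the intensity trend there were 963 probe sets, 1 gene higher (Map3k8) and 16 in the lists. Scaling to hybridisation controls moved that median to -0.825 and gave 122 probe sets, 1 gene higher (Map3k8), 0 lower and 0 in the lists. Spry2 was then at -0.41, which is 0.42 above that median, Dusp6 at 0.26 and Dusp1 at -2.86. All values of an array are divided by the same factor, so a distance from that median returns near the reported value by construction. The replicate numbers are shared between the groups, but same-numbered arrays did not deviate together (correlation 0.091, 2 pairs). With the replicate block there were 3276 probe sets called, 4 genes higher (Dusp6, Dusp10, Map3k8 and Spry4), 1 lower and 35 in the lists. In the other alternatives Map3k8 and Dusp6 were higher and Dusp1 lower. A filter at the 60th percentile left Dusp5 and Dusp10 untested.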
